A study of Mus musculus with 42 samples.

Results

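The 36 integrin and laminin chain genes on the array were described here in mouse aorta and skeletal muscle. They were taken by gene symbol, as every integrin alpha or beta chain and every laminin alpha, beta or gamma chain, with integrin binding proteins left out. This gave 25 integrin chains and 11 laminin chains, read by 81 of the 41174 probes and among 21186 genes with a symbol. RNA of both tissues was measured in 7 groups with 3 mice in each group and tissue, on 42 single-colour arrays. The groups were healthy C57 mice (group G), KK/Ay mice with spontaneous diabetes (group A), KK/Ay mice with macroangiopathy from a high-fat diet and L-NAME in the drinking water (group C), and mice of that model given SHENQI compound (group B), its yangyinyiqi part (group D), its huoxue part (group E) or rosiglitazone (group F). L-NAME blocks nitric oxide synthase, and rosiglitazone activates the nuclear receptor PPAR gamma. All mice were male, 18 to 20 weeks old at the start and gavaged for 8 weeks, with saline in groups G, A and C. KK/Ay mice become obese and diabetic through a dominant agouti allele, and groups A and C differ from group G in strain as well as in disease, so strain and disease cannot be told apart.

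Integrins are cell surface receptors made of an alpha and a beta chain, which hold cells to the matrix around them and pass signals in both directions. Laminins are cross-shaped proteins of the basement membrane, each built from an alpha, a beta and a gamma chain. In skeletal muscle the integrin of alpha7 and beta1 binds the laminin that holds the alpha2 chain around each fibre, and in the vessel wall smooth muscle cells and endothelium rest on laminins with alpha4 and alpha5 chains. The chains alphaL, alphaM, alphaX, alphaE, beta2 and beta7 belong mainly to leukocytes.

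Levels are given as log2 of the normalized intensity, and a level near 7 is the floor of the measurement. Genes entered a comparison if any of their probes stood well above background on every array of at least 1 of its groups, and a gene was called at a limma adjusted P below 0.05. Of the 36 genes, 29 were above background on all aorta arrays and 26 on all muscle arrays. Lama1 was above background on 0 of 42 arrays and was never tested. Itga2 was above background on 3 aorta arrays and 1 muscle array and was never tested either. The other 34 were tested. Of the 81 probes, 13 were not above background on all 3 arrays of any group, and averaging them into a gene makes its difference smaller.

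Some arrays stood apart. Probes well above background numbered 23840 to 30274 on the aorta arrays and 20200 to 26844 on the muscle arrays. The summed intensity of 6 skeletal muscle fibre markers was 604831 to 867497 in muscle and 2863 to 294232 in aorta, so the tissue labels matched these markers. Even so, diabetic aorta 2 (294232) and rosiglitazone aorta 1 (165186) held much fibre RNA. The summed intensity of 6 smooth muscle markers was 8775 to 273078 in aorta and 4430 to 13547 in muscle. The lowest aorta sum, that of healthy aorta 1, lay within the muscle range. White fat and brown fat markers were also present in aorta, at sums of 40189 to 347185 and 120402 to 590952. Healthy aorta 1 and 3, diabetic aorta 1 and SHENQI aorta 1 lay on slide 1. Healthy muscle 1 and 2 and rosiglitazone muscle 2 and 3 lay on slide 3. All huoxue muscle arrays and rosiglitazone muscle 1 lay on slide 11. No muscle array of group C lay on these slides. In muscle, huoxue and rosiglitazone therefore cannot be told apart from slide when set directly against group C. In whole tissue, fewer cells of a type and less RNA per cell cannot be told apart.

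Between the tissues, 20 of the 34 genes tested were called higher in aorta and 5 higher in muscle. Over all genes, 40.3% were called higher in aorta and 36.7% higher in muscle. The median difference of the members was 0.24 on the log2 scale and that of all genes 0.02. By role, all 4 alpha chains that bind the RGD sequence (Itga2b, Itga5, Itga8 and Itgav) were called higher in aorta. So were 4 of the 6 beta chains of tissue cells (Itgb3, Itgb4, Itgb5 and Itgb8) and both leukocyte beta chains. The same held for 2 of 4 laminin alpha chains (Lama4 and Lama5) and 2 of 3 laminin beta chains (Lamb1 and Lamb2). Itga2b, Itgav and Itgb8 lay near the floor. Their mean levels were 7.15, 7.24 and 7.20 in aorta and 6.90, 7.12 and 6.97 in muscle. Of the laminin chains, Lama2 and Lamc1 were called higher in muscle. Of the collagen receptors, Itga1 was higher in aorta and Itga11 in muscle. In healthy mice alone, 5 of 32 members were called higher in aorta (16.1% of all genes) and 6 in muscle (19.1%). In each other group, 10 to 14 were called higher in aorta (20.8% to 24.5% of all genes). There, 3 to 4 were called higher in muscle (24.5% to 27.3%). In healthy mice Itgb4 and Itgb5 were lower in aorta (-0.29 and -0.30). Itgb2, Itgb4 and Itgb7 were called in 0 of 7 groups taken alone.

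**Figure D1:**
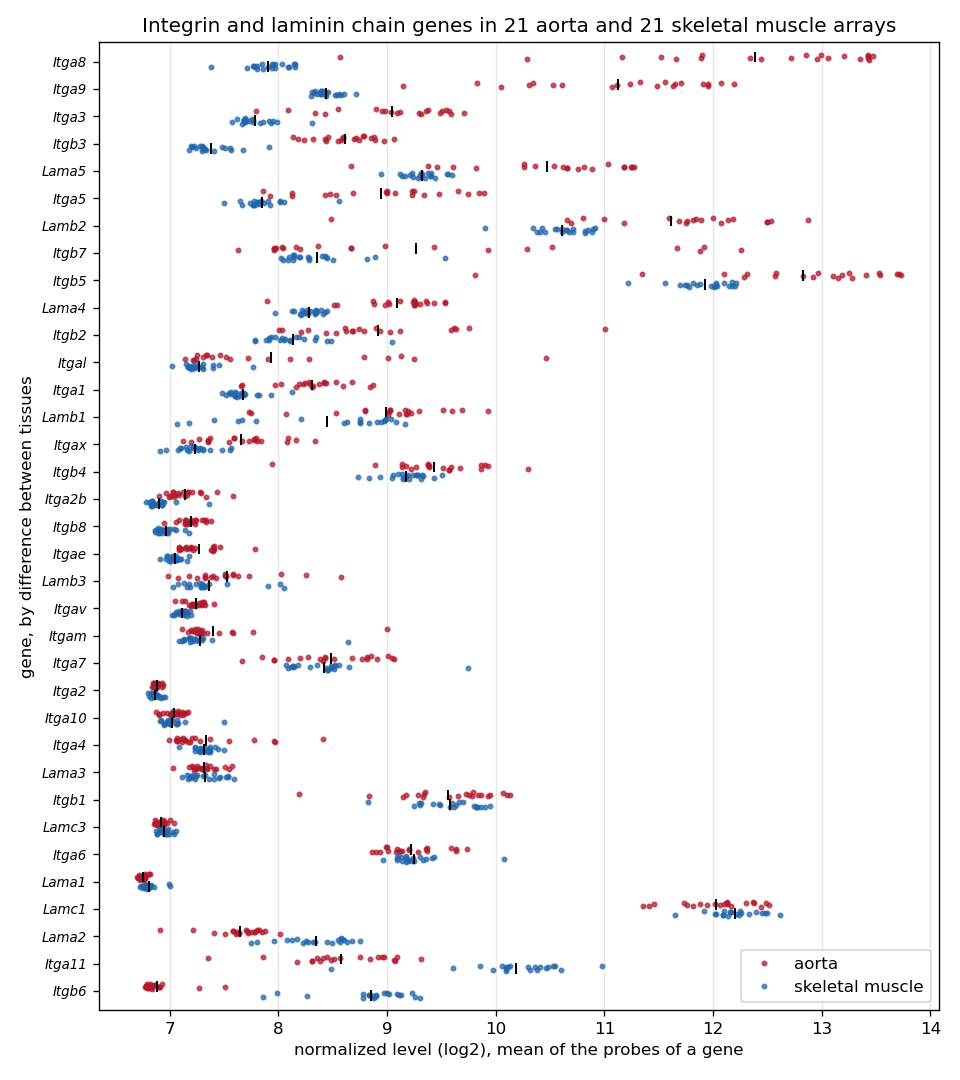
Normalized level (log2, x axis) of each gene shown (y axis, ordered by the difference between the tissues) on 21 aorta arrays (red) and 21 skeletal muscle arrays (blue), 1 point per array, with a black bar at the mean of the tissue. The points of the tissues separate without overlap for Itga8, Itga9, Itgb3 and Itgb6 and overlap for the other genes. The share of all genes that separate in this way was not counted, and 77.0% of all genes were called between the tissues.

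Itga8, the alpha chain that pairs with beta1 and binds nephronectin, had the largest difference. Its level was 8.57 at the lowest, 12.85 at the median and 13.47 at the highest over 21 aorta arrays, against 7.39, 7.94 and 8.16 over 21 muscle arrays. The tissues did not overlap, and the difference was 4.47 ± 0.21 (log2, SE, n = 21 arrays per tissue), a 22.2-fold higher level in aorta (limma adjusted P = 2.72e-18). Inside the 7 groups it ran from 2.48 to 5.34. Its 3 probes differed by 5.31, 5.60 and 2.51. The probe with the smallest difference spans a splice junction and was above background on 1 of 21 muscle arrays, so the floor limits its difference. It is shown because the largest difference of the family rests on this gene:
Itga8 junction probe, chr2:12077139-12081989, minus strand, mm9: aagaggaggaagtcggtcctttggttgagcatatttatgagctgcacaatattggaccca

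Itga9, an alpha chain for tenascin C and VCAM1, was at 9.15, 11.33 and 12.19 (lowest, median and highest level) in aorta and at 8.31, 8.42 and 8.72 in muscle. The arrays again did not overlap, and its level was 6.43-fold higher in aorta (difference 2.69 ± 0.17, adjusted P = 3.03e-15). Itgb3, the beta chain of the platelet fibrinogen receptor and of the vitronectin receptor, was at 8.14, 8.60 and 9.07 in aorta and at 7.18, 7.31 and 7.92 in muscle, without overlap. Its difference was 1.24 ± 0.06 (adjusted P = 8.45e-19), and its probes differed by 2.17 and by 0.30, the latter near the floor.

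Another 3 genes differed by over 1 on the log2 scale, with arrays that overlapped between the tissues. Itga3, an alpha chain of laminin receptors, was at 7.80, 9.12 and 9.71 in aorta and at 7.57, 7.73 and 8.31 in muscle (difference 1.26 ± 0.11, adjusted P = 1.66e-11). Lama5, the alpha chain of laminins under mature endothelium, was at 8.67, 10.66 and 11.27 in aorta and at 8.94, 9.32 and 9.60 in muscle (difference 1.15). Itga5, the alpha chain of the fibronectin receptor, was at 7.86, 9.01 and 9.90 in aorta and at 7.50, 7.82 and 8.56 in muscle (difference 1.09). For all 3 genes, aorta was higher in 7 of 7 groups, and the lowest aorta arrays were healthy aorta 1 for Itga3 and Lama5 and SHENQI aorta 2 for Itga5. The other 14 genes called higher in aorta differed by 0.13 (Itgav) to 1.005 (Lamb2, 2.01-fold).

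Itgb6, the beta chain that pairs with alphaV and activates latent TGF-beta at epithelia, was the member highest in muscle relative to aorta. Its level was 6.78, 6.84 and 7.51 (lowest, median and highest) over the aorta arrays, at the floor, and 7.86, 8.90 and 9.31 over the muscle arrays. It was well above background on 8 of 21 aorta arrays and on all muscle arrays, so its fold in large part compares muscle with the floor. The tissues did not overlap and the measured level was 3.90-fold higher in muscle (difference -1.96 ± 0.05, adjusted P = 5.32e-24). All 3 of its probes differed in that direction, by -3.13, -2.02 and -0.74. The brightest spans a splice junction, and its level was 8.09 in diabetic aorta 2 and 7.65 in rosiglitazone aorta 1, the aorta arrays with the most skeletal muscle fibre RNA, against at most 7.05 on the other aorta arrays. It is shown as the probe with the largest difference of the 3:
Itgb6 junction probe, chr2:60438632-60443247, minus strand, mm9: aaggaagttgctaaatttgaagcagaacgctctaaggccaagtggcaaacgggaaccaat

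Itga11, a collagen receptor chain of fibroblasts, was at 7.35, 8.51 and 9.32 in aorta and at 8.49, 10.30 and 10.98 in muscle (difference -1.60 ± 0.16, adjusted P = 1.32e-10). The lowest muscle level was that of healthy muscle 3, and the other muscle arrays started at 9.61. With scan day as a batch term the difference of Itga11 was 0.82, in the opposite direction, and not called (adjusted P = 0.36). Healthy muscle 3 was the only muscle array scanned on a day shared with aorta arrays. With that term the difference between the tissues therefore depends on this array. Lama2, the laminin alpha chain whose loss causes a congenital muscular dystrophy, was at 6.92, 7.71 and 8.01 in aorta and at 7.75, 8.34 and 8.75 in muscle (difference -0.70 ± 0.04, adjusted P = 6.08e-15). Its 2 probes above background differed by -1.43 and -0.55. Lamc1, the gamma chain of most laminins, was at 11.36, 12.10 and 12.52 in aorta and at 11.65, 12.16 and 12.62 in muscle, and its difference of -0.17 (adjusted P = 0.039) was lost in 18 of 42 fits that left out an array. It turned to 0.11 with slides 1, 3 and 11 as a batch term and to 0.76 with scan day as one, where it again depends on healthy muscle 3.

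Itgb1, the beta chain shared by most integrins of tissue cells, was not called as a gene (difference -0.02), and its probes differed in opposite directions. The probe described as integrin beta1D, the splice form of striated muscle, was at 6.86 to 7.50 in aorta and at 8.35 to 9.75 in muscle. These ranges did not overlap, and its level was 4.93-fold higher in muscle (difference -2.30 ± 0.06, adjusted P = 3.56e-25, in a fit of all probes). The other probes of Itgb1 were higher in aorta by 1.11 and 1.14. The beta1D probe spans a splice junction that lies downstream of the other probe shown, and both are printed because they read the same gene in opposite directions:
Itgb1, beta1D junction probe, chr8:131250931-131255949, plus strand, mm9: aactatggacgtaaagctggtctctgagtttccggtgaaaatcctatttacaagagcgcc
Itgb1, common probe, chr8:131246349-131246408, plus strand, mm9: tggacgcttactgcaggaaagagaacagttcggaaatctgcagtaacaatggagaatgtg

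Lama3 and Lamc3 also had probes called in both directions, by -0.22 and 0.20 and by 0.12 and -0.12, all at mean levels below 7.46. In total, probes were called both ways in 3 of the 21 genes with several probes tested. Itga7, the alpha chain of the laminin receptor of muscle fibres, did not pass the test between tissues, with a level of 7.67 to 9.06 in aorta and 8.07 to 9.74 in muscle. Itga6, a laminin receptor chain of many epithelia and of endothelium, had medians of 9.14 and 9.20. Itga4, Itga10, Itgam and Lamb3 were not called either.

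The levels of several leukocyte chains varied among aortas of the same group. The summed intensity of 6 leukocyte markers (Ptprc, Laptm5, Coro1a, Cd53, Cd52 and Lcp1) was 20978 to 59318 on 6 aorta arrays, which were healthy 1, macroangiopathy 3, SHENQI 2, yangyinyiqi 2, huoxue 2 and rosiglitazone 1, and 1962 to 7139 on the other 15. On those 6 arrays, Itgb7, the beta chain of gut-homing lymphocytes, was at 11.91, 10.52, 11.67, 11.88, 12.25 and 10.29 in that order, and on the other 15 at 7.63 to 9.93. Itgal, the alpha chain of LFA-1, was at 8.28 to 10.46 on the 6 arrays and at 7.14 to 8.11 on the 15, and Itga4, the alpha chain of VLA-4, at 7.37 to 8.41 and at 6.99 to 7.28. The ranges of these 3 genes did not overlap. They were 3 of the 33 members measured in aorta, and 3.25% of all 15796 genes measured there lay higher on all 6 arrays in the same way. The ranges of Itgb2, the common beta chain of leukocyte integrins, met, at 8.94 to 11.01 and 8.01 to 9.12. Itgae, which pairs with beta7, was at 7.22 to 7.79 and 7.09 to 7.41, and Itgax, the alpha chain of a dendritic cell integrin, at 7.35 to 8.16 and 7.13 to 8.34. The arrays were set apart by the markers alone and these ranges were not tested. Itgam, the alpha chain of Mac-1, was highest on healthy aorta 1, at 9.001, and at 7.11 to 7.76 on all other aorta arrays.

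**Figure D2:**
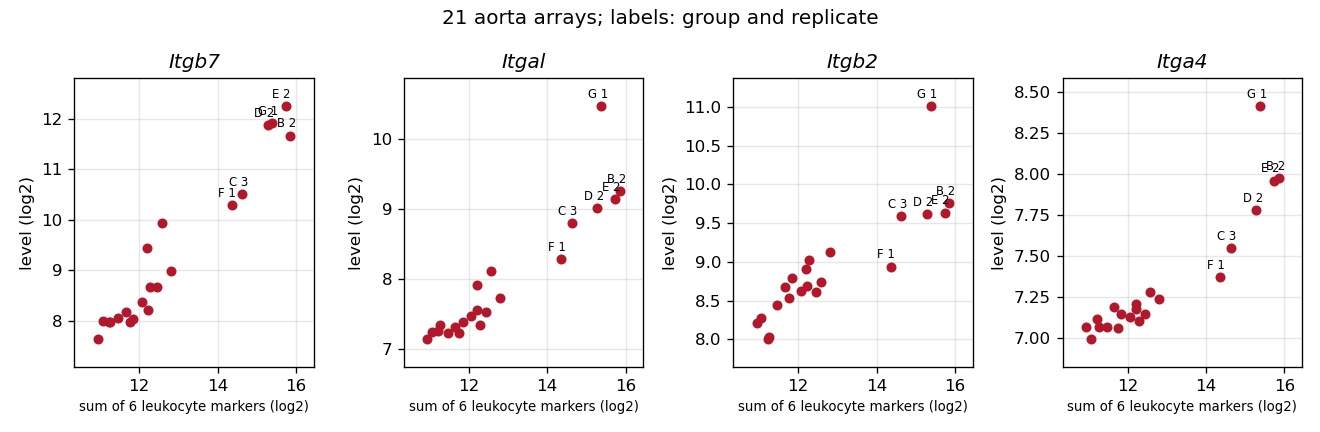
Level (log2, y axes) of Itgb7, Itgal, Itgb2 and Itga4 on the 21 aorta arrays against the log2 of the summed intensity of 6 leukocyte markers (x axes), 1 point per array, with group letter and replicate beside the 6 arrays above 20000. These 6 arrays come from 6 groups and hold the highest levels of Itgb7, Itgal and Itga4.

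In aorta of diabetic mice against healthy mice (A vs G), 8 of the 33 genes tested were called higher and 1 lower. Over all genes, 8.42% were called higher and 7% lower. Itgb5, a beta chain of the vitronectin receptors, was higher by 1.78 ± 0.40 (SE, adjusted P = 0.0029), Itga8 by 2.27 ± 0.55 (adjusted P = 0.0054), Lama5 by 1.37 ± 0.34 (adjusted P = 0.0057) and Lama2 by 0.47 ± 0.12 (adjusted P = 0.0067). Itgb4, the beta chain of hemidesmosomes, was higher by 0.94 ± 0.28 and Lamc1 by 0.68 ± 0.20. The other 3 genes called were Lamb2 (1.55), Itgb1 (0.75) and Itgb3, which was lower by 0.46. The median difference of the members was 0.19, and that of all genes 0.01.

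In aorta of group C against group G, 11 of the 33 genes tested were called and all 11 were higher. Over all genes, 11.3% were called higher and 9.37% lower. The 6 with the smallest P values were Itgb5 (2.30 ± 0.40, adjusted P = 0.00019), Itga8 (2.87 ± 0.55, adjusted P = 0.00051), Lama5 (1.69 ± 0.34, adjusted P = 0.00068), Itgb1 (1.09 ± 0.24, adjusted P = 0.0016), Lama2 (0.46 ± 0.12, adjusted P = 0.0057) and Itga9 (1.70 ± 0.44, adjusted P = 0.0066). The other 5, which were Lamb2, Lamc1, Itga3, Itgav and Lama4, differed by 0.16 to 1.75. Both comparisons share the healthy arrays, and 7 genes (Itga8, Itgb1, Itgb5, Lama2, Lama5, Lamb2 and Lamc1) were called in both. The median difference of the members was 0.16 and that of all genes 0.00.

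**Figure D3:**
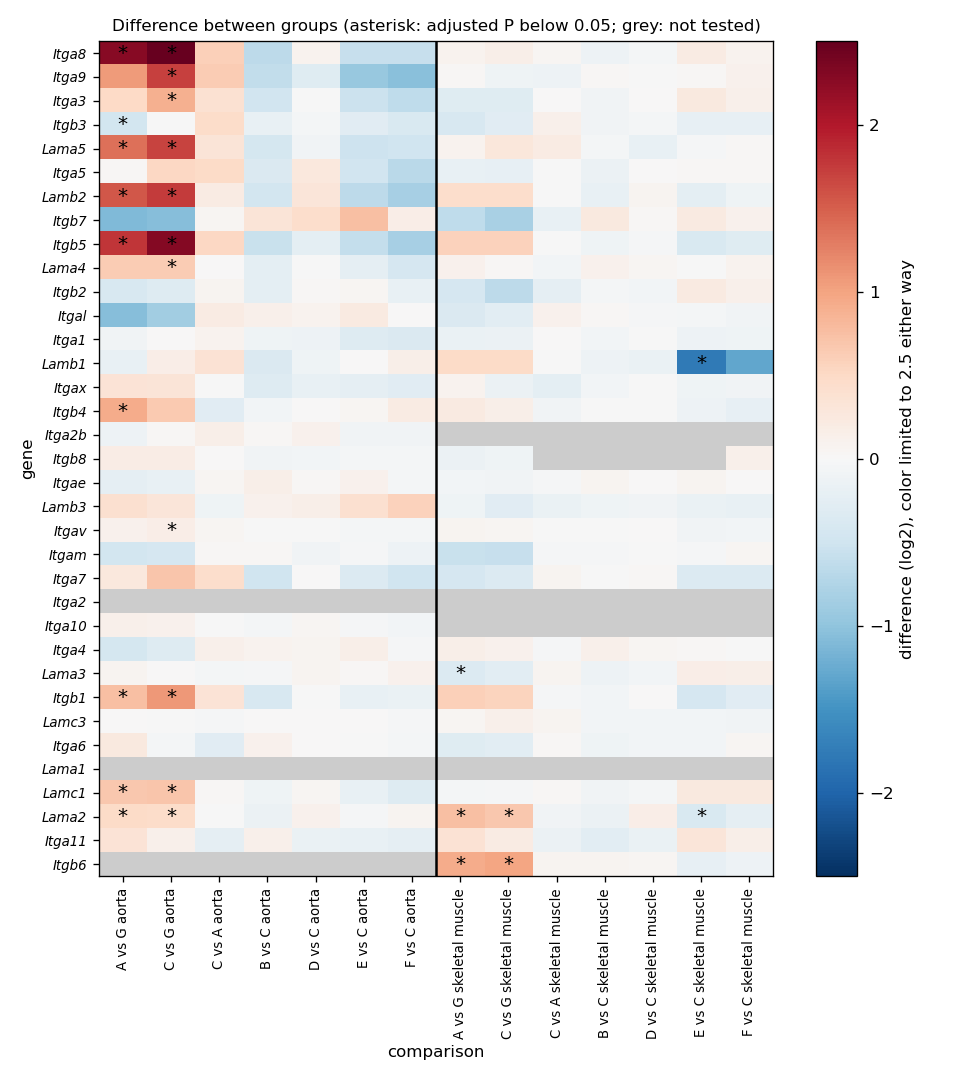
Difference of levels (log2, color) of the genes shown (rows, in the order of their difference between tissues) in 7 comparisons in aorta and in skeletal muscle (columns), with an asterisk where the limma adjusted P was below 0.05 and grey where a gene was not tested. The calls lie in A vs G and C vs G in both tissues and in E vs C in muscle, and C vs A and B, D and F vs C hold 0 calls.

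The healthy aorta arrays differed widely among themselves. The level of Itga8 was 8.57, 11.90 and 10.29 in healthy aorta 1, 2 and 3, against 13.21, 11.66 and 12.72 in the diabetic mice and 12.99, 12.96 and 13.43 in the macroangiopathy mice. Itgb5 was at 9.81, 12.57 and 11.34 in the healthy mice, at 13.15, 12.83 and 13.10 in the diabetic mice and at 13.53, 13.41 and 13.69 in the macroangiopathy mice. Lamb2, the beta chain of laminins in vessels and at the neuromuscular junction, was at 8.48, 11.84 and 10.81 in the healthy mice and at 11.60 to 12.50 in the others. For all 3 genes healthy aorta 1 was lowest and healthy aorta 2 highest of the healthy mice. The smooth muscle marker sum had the same order, with 8775, 110328 and 53766 in healthy aorta 1, 2 and 3, 98761 to 176491 in diabetic aorta and 171592 to 234069 in macroangiopathy aorta. Of its 6 genes, 4 were called higher in A vs G and 6 in C vs G, and its part in these differences was not tested. Of 6 fibroblast markers, 2 were called higher in each comparison, of 6 endothelial markers 1 in A vs G and 0 in C vs G, and of the 6 leukocyte markers 0 in both.

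**Figure D4:**
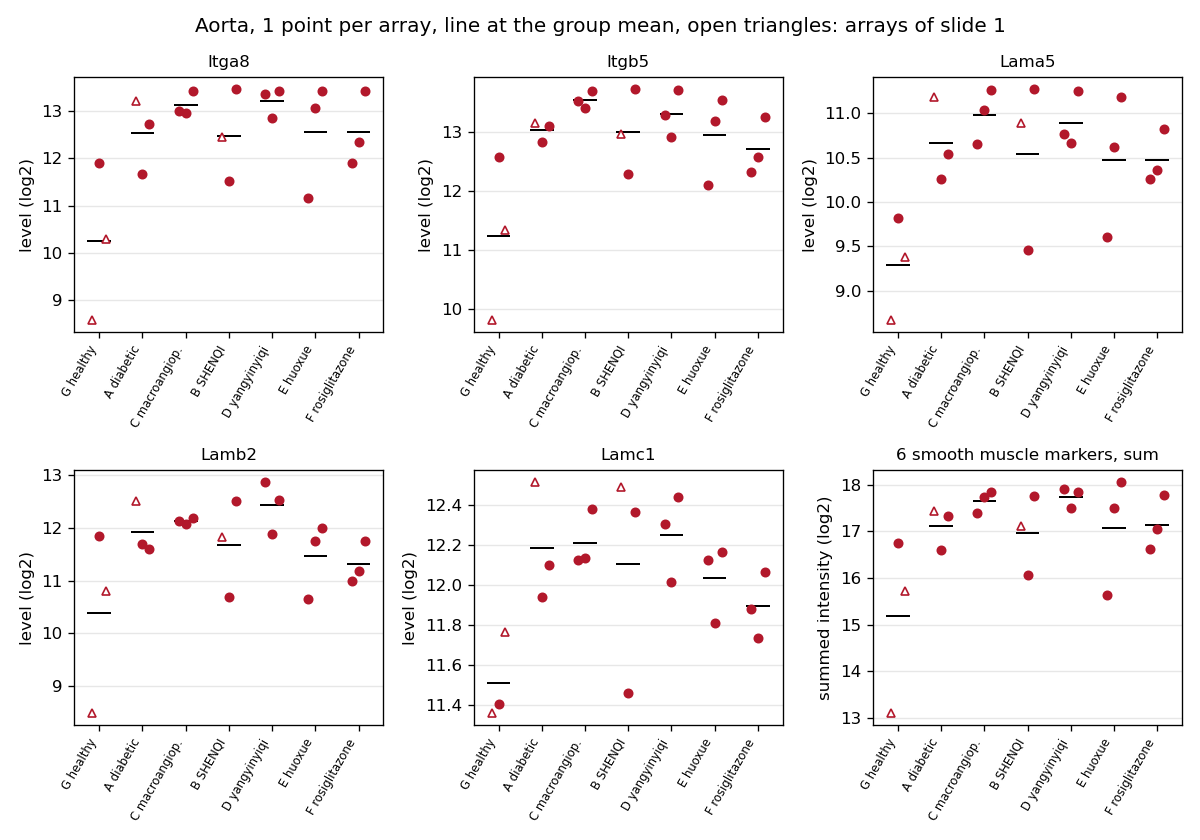
Level (log2, y axes) of Itga8, Itgb5, Lama5, Lamb2 and Lamc1 and log2 of the summed intensity of 6 smooth muscle markers on the aorta arrays of the 7 groups (x axes), 1 point per array with a line at the group mean and open triangles for arrays of slide 1. Healthy aorta 1 is lowest in all 6 panels, and healthy aorta 2 lies within the range of the other groups in all panels but that of Lamc1.

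Without the arrays of slides 1, 3 and 11, which leaves 1 healthy aorta array that is assumed to vary like the other groups, 0 of 33 genes were called by limma in A vs G (6.17% of all genes), where 8 members and 20.9% of all genes had an unadjusted P below 0.05, and 1 of 33 in C vs G (7.44% of all genes), where 6 members and 22.3% of all genes did. That gene was Lamc1, at a difference of 0.81 ± 0.23 (adjusted P = 0.038). The level of Lamc1 was 11.36, 11.41 and 11.76 in healthy aorta, 12.52, 11.94 and 12.10 in diabetic aorta and 12.13, 12.13 and 12.38 in macroangiopathy aorta, so its 3 healthy arrays lay below all 6 others. With all slides in the fit, Lamc1 was not called in C vs G without healthy aorta 1 (0.63, adjusted P = 0.061) or without macroangiopathy aorta 3 (0.62, adjusted P = 0.067). Of the treated mice, SHENQI aorta 2 (11.46) and rosiglitazone aorta 2 (11.74) lay below healthy aorta 3. Without those slides the difference of Itga8 was 0.29 in A vs G and 1.23 in C vs G, that of Lamb2 was -0.20 and 0.29, and that of Itga3 in C vs G was -0.02. Inside slide 1, diabetic aorta 1 was above the mean of healthy aorta 1 and 3 by 3.78 for Itga8, 2.85 for Lamb2, 2.57 for Itgb5, 2.16 for Lama5 and 0.96 for Lamc1, as values with no test. Without healthy aorta 1 alone, the difference of Itga8 in A vs G was 1.43 and not called (adjusted P = 0.086), and 2 of 33 members in A vs G (8.91% of all genes) and 4 of 33 in C vs G (14.2% of all genes) were called in aorta, against 9 and 11 with all arrays. With slide as a fixed block, 7 of 33 were called in A vs G (8.02% of all genes), Itga8 among them at 3.38 ± 0.78 (adjusted P = 0.012), and C vs G could not be fitted. With only the arrays of the 2 groups compared in the fit, 0 of these aorta differences were called. The share of all genes called in that fit was not counted, so this loss cannot be set against that of other genes.

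In skeletal muscle, 3 of 32 genes were called in A vs G, 2 higher and 1 lower. Over all genes, 6.63% were called higher and 3.95% lower. In C vs G, 2 of 32 were called and both were higher, where 6.26% of all genes were called higher and 3.62% lower. Itgb6 was at a level of 7.86, 8.26 and 7.99 in healthy muscle, at 9.003, 8.78 and 9.11 in diabetic muscle and at 9.26, 8.87 and 8.97 in macroangiopathy muscle. Its 3 healthy arrays lay below the other 18 muscle arrays, which ranged from 8.78 to 9.31. The difference of Itgb6 was 0.93 ± 0.14 in A vs G (1.90-fold, adjusted P = 3.33e-05) and 0.99 ± 0.14 in C vs G (1.99-fold, adjusted P = 1.30e-05), and all 3 probes were called higher in both comparisons. The junction probe printed above rose by 1.47 and 1.51.

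Lama2 was the other gene called in both comparisons. Its level was 7.80, 7.96 and 7.75 in healthy muscle, 8.58, 8.57 and 8.64 in diabetic muscle and 8.50, 8.45 and 8.59 in macroangiopathy muscle, without overlap. It was higher by 0.76 ± 0.12 in A vs G (1.69-fold, adjusted P = 4.69e-05) and by 0.67 ± 0.12 in C vs G (1.60-fold, adjusted P = 0.00023). The probe of Lama2 with 10 spots rose by 0.99 and 0.91 and the junction probe by 0.95 and 0.98. The junction probe was at 7.13, 7.35 and 7.53 in healthy muscle and at 6.89 to 7.53 in the huoxue and rosiglitazone groups, against 7.96 to 8.52 in groups A, B, C and D. Lama3, the alpha chain of epithelial laminins, was lower in A vs G by 0.33 (adjusted P = 0.014), with levels of 7.53, 7.52 and 7.59 in healthy and 7.25, 7.24 and 7.16 in diabetic muscle, and it was not called in C vs G, nor in A vs G without diabetic muscle 3 (-0.30, adjusted P = 0.069). Only 1 of its 2 probes was called.
Lama2 junction probe, chr10:26710714-26712724, minus strand, mm9: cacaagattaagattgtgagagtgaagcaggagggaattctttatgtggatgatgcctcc

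**Figure D5:**
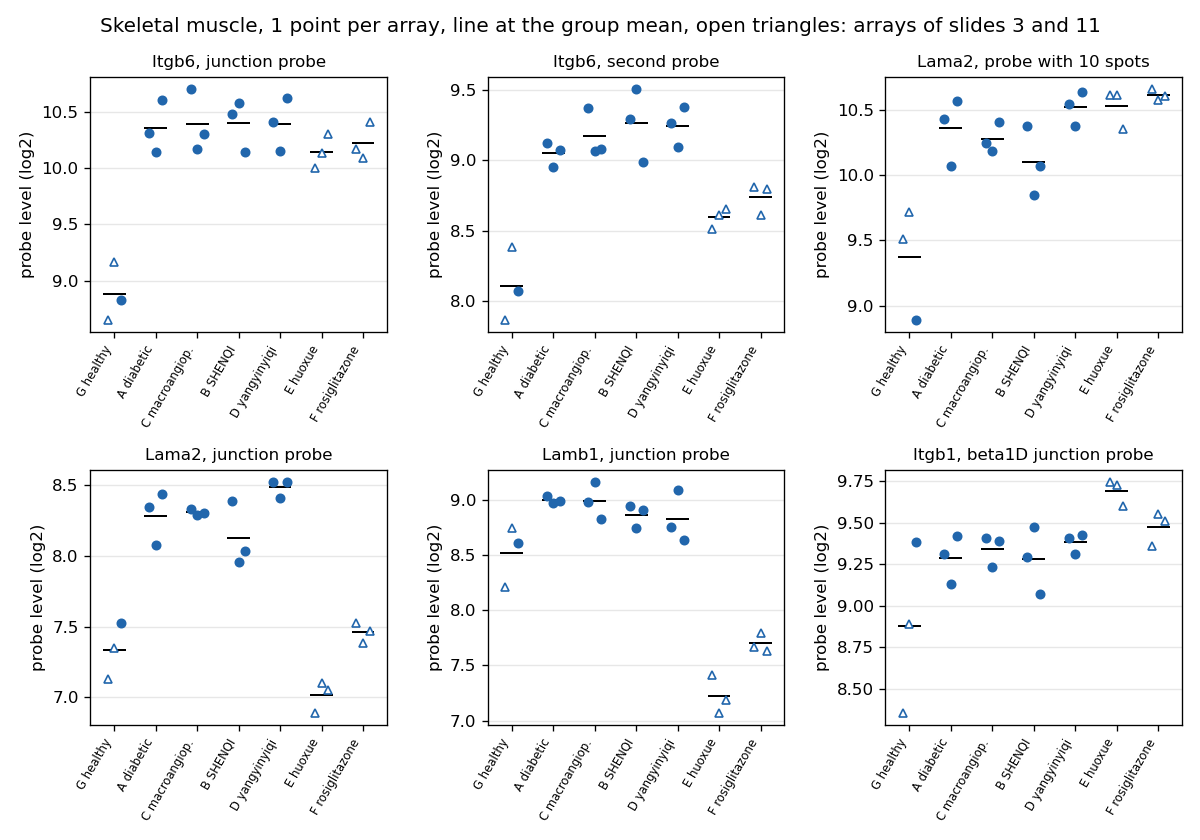
Probe level (log2, y axes) of Itgb6 (2 probes), Lama2 (2 probes), Lamb1 and the beta1D form of Itgb1 on the muscle arrays of the 7 groups (x axes), 1 point per array with a line at the group mean and open triangles for arrays of slides 3 and 11. The 3 healthy arrays are lowest for both Itgb6 probes and for the Lama2 probe with 10 spots, and the huoxue and rosiglitazone arrays are lowest for Lamb1 but not for that Lama2 probe.

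Without slides 1, 3 and 11, Itgb6 differed by 0.98 in A vs G and 1.04 in C vs G, and Lama2 by 0.84 and 0.76, and all 4 differences stayed called. Itgb6 was not called with the authors' values or the processed signal (highest adjusted P = 0.18 in A vs G and 0.17 in C vs G), where its differences were 1.40 and 1.54 in A vs G and 1.51 and 1.62 in C vs G, and Lama2 was not called with scan day as a batch term (adjusted P = 0.087 and 0.14). Without the arrays of slides 1, 3 and 11, healthy muscle 3 was the single healthy muscle array. In that fit 7 of 32 genes were called in each comparison, against 20.6% of all genes in A vs G and 19.2% in C vs G. Healthy muscle 3 stood apart in other members, and its part in these counts was not tested. Itgam was at 8.64 in healthy muscle 3 and at 7.39 and 7.30 in healthy muscle 1 and 2, Itga7 at 9.74 and at 8.09 and 8.65, and Itga11 at 8.49 and at 10.48 and 10.98. None of these 3 genes was called with all arrays. Skeletal muscle fibre markers were also lowest in healthy muscle 3, at a sum of 604831 against 694361 to 867497 on the other muscle arrays, and their part in these values was not tested.

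The response to the macroangiopathy model on top of diabetes was read in C vs A. By limma, 0 of 33 genes were called in aorta, where 0% of all genes were called, and 1 had an unadjusted P below 0.05, where 3.23% of all genes did. That gene was Itgb3, with levels of 8.55, 8.97 and 8.90 in group C and 8.46, 8.18 and 8.43 in group A (difference 0.45 ± 0.15, adjusted P = 0.9998). In muscle, 0 of 31 were called (0.0073% of all genes), and 0 had an unadjusted P below 0.05 (1.47% of all genes).

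For SHENQI compound against the model (B vs C), 0 of 33 genes were called in aorta (0.013% of all genes) and 0 of 31 in muscle (0% of all genes). None had an unadjusted P below 0.05, where 2.96% of all genes did in aorta and 0.511% in muscle. For yangyinyiqi (D vs C), 0 of 33 in aorta and 0 of 31 in muscle were called, with 0% of all genes in each, and none had an unadjusted P below 0.05, where 1.17% and 0.556% of all genes did. In aorta the SHENQI mice varied widely, with Itga8 at 12.44, 11.52 and 13.47 and Lama5 at 10.89, 9.46 and 11.27, and the SHENQI mouse with the lowest levels was also the 1 with the highest leukocyte sum.

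For huoxue (E vs C), 0 of 33 genes were called in aorta (0% of all genes), and Itga9 alone had an unadjusted P below 0.05 (2.26% of all genes). Its difference was -0.95 ± 0.44 (adjusted P = 0.9998), with levels of 9.83, 11.33 and 11.63 in group E and 11.48, 11.96 and 12.19 in group C. In muscle 2 of 31 genes were called and both were lower, where 6.12% of all genes were called. Lamb1, the laminin beta chain of many basement membranes, was at 7.41, 7.07 and 7.18 in huoxue muscle and at 8.98, 9.16 and 8.83 in group C (difference -1.77 ± 0.38, adjusted P = 0.0053), and it was well above background on 1 of 3 huoxue arrays. Lama2 differed by -0.39 ± 0.12 (adjusted P = 0.046), but its probes disagreed. The junction probe fell by 1.30 to a level not well above background on any of the 3 huoxue arrays, which makes it at least 2.34-fold lower, while the probe with 10 spots was at 0.25 above group C. Lama2 was not called when any 1 of the 6 arrays was left out (adjusted P from 0.094 to 0.15), and Lamb1 stayed called each time. With slides 1, 3 and 11 as a batch term, 0 members were called, and the share of all genes was not counted.

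For rosiglitazone (F vs C), 0 of 33 genes were called in aorta (0% of all genes) and 5 had an unadjusted P below 0.05, where 7.31% of all genes did. Those with the smallest P values were Itgb3 (-0.37 ± 0.15, adjusted P = 0.57), Lamb3 (0.57 ± 0.23, adjusted P = 0.59) and Itga9 (-1.04 ± 0.44, adjusted P = 0.60). In muscle 0 of 32 were called (0.361% of all genes) and 2 had an unadjusted P below 0.05, where 11.5% of all genes did. Lamb1 was at 7.67, 7.80 and 7.63 in rosiglitazone muscle, below group C on all 3 arrays as in huoxue muscle, with a difference of -1.29 ± 0.38 (adjusted P = 0.14). Lamc3 differed by -0.10 ± 0.05 (adjusted P = 0.43). Lamb1 lay at 8.21 to 9.16 on the muscle arrays of all other groups, among them healthy muscle 1 and 2 on slide 3 with 8.21 and 8.75. Probes of other members split on these arrays as well, among them those of Itga7, Itgb1 and Itgb6. Against group C, the probes of Itga7 ran from -1.07 to 0.37 with huoxue and from -1.08 to 0.39 with rosiglitazone. Those of Itgb1 ran from -1.20 to 0.35 and from -0.95 to 0.13, and 0 probes of Itga7 and Itgb1 were called. The probes of Itgb6 ran from -0.58 to 0.24 with huoxue, where 1 was called lower. With rosiglitazone they ran from -0.43 to 0.24, and 0 were called. The single probe of Lamb1 spans a splice junction, like the probe of Lama2 that fell on the same arrays. Whether junction probes fell more often than others was not tested, and both are printed as probes of this kind:
Lamb1 junction probe, chr12:32012684-32014030, plus strand, mm9: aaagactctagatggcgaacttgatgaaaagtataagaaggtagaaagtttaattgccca

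Whether a difference was unlike in the 2 tissues was tested with an interaction. In C vs G, 2 of 34 genes were called, where 4.59% of all genes were called. Itgb6 had an aorta difference minus muscle difference of -0.93 ± 0.20 (adjusted P = 0.0058), but its aorta signal exceeded background clearly on 0 of 3 healthy and 2 of 3 macroangiopathy arrays, so its aorta difference is held near 0 by the floor and the value restates its rise in muscle. Itga8 was higher in aorta by 2.87 and differed by 0.15 in muscle (interaction 2.72 ± 0.78, adjusted P = 0.041). In A vs G, 0 of 34 were called (1.96% of all genes) and 7 had an unadjusted P below 0.05 (14.9% of all genes), with Itgb6 at -0.66 (adjusted P = 0.079). Limma called 0 of 34 members in the remaining interactions. Of all genes it called 0% for C vs A and for the SHENQI and yangyinyiqi comparisons, where 0 members had an unadjusted P below 0.05, 0.203% for huoxue and 0.0316% for rosiglitazone, where 2 members each did, beside 11% and 9.5% of all genes. Without slides 1, 3 and 11, 5 of 34 members were called in C vs G (10.2% of all genes), Itgb6 among them (-0.99, adjusted P = 0.036) and Itga8 not (0.69, adjusted P = 0.72).

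Genes that work with these receptors were read from fixed lists. Of 27 intracellular partners, such as talins, kindlins and parvins, which link integrins to actin, 25 were tested in aorta, and 8 were called higher in A vs G and 14 in C vs G, with 0 lower, where 8.42% and 11.3% of all genes were called higher. Of 21 basement membrane and ligand partners, 6 of 20 tested were higher in A vs G and 8 of 21 in C vs G, with 0 lower. Over both lists, the 4 with the smallest P values in A vs G were the nidogen Nid2 (0.91), the docking protein Bcar1 (0.92), the platelet ligand Vwf (1.39) and Hspg2, which encodes perlecan (1.70). In C vs G they were Bcam, the laminin receptor of the Lutheran blood group (2.34), the actin crosslinker Actn4 (1.49), Ntn4 (0.70) and Zyx (1.47), which encodes zyxin of focal adhesions. The median of the intracellular partners was 0.59 and 0.52 in the 2 comparisons and that of the ligand partners 0.26 and 0.22. These calls rest on the same healthy aorta arrays as those of the members. Fewer members were called without the healthy array that had the lowest smooth muscle marker sum. Whether the partner calls depend on that array, on the slides left out above or on smooth muscle content was not tested.

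In muscle, where 6.63% of all genes were called higher in A vs G and 6.26% in C vs G, few partners were called. The intracellular partners Lims1, the adaptor PINCH that binds integrin-linked kinase, and Parvb, a parvin of muscle, were higher in A vs G (0.81 and 0.42) and in C vs G (0.68 and 0.41), as 2 of 24 tested. Of 20 ligand partners, Ntn4, a netrin that binds laminin gamma chains, was higher in both (0.84 and 0.73), 1 more gene in A vs G, and Spp1, which encodes osteopontin, was lower, with differences of -1.503 and -1.31. In E vs C, Lims1 (-1.08), Pxn (-0.43) and Ntn4 (-0.55) were lower, where 6.12% of all genes were called. Between the tissues, 16 of 25 intracellular partners were called higher in aorta and 7 in muscle, and those with the smallest P values were Parvb (-0.84), Actn4 (2.63), Zyx (2.52) and Flna, which encodes filamin A (2.36). Of 21 ligand partners, 13 were higher in aorta and 6 in muscle, beside 40.3% and 36.7% of all genes.

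Promoter sequences from RefSeq (GRCm38.p6, windows of 300 bases around each start) were at hand for 23 of the 36 genes. They were searched on both strands for the CArG box, which serum response factor binds, and for a site of ETS factors, a TATA box and a GC box, motifs chosen with the results known. The CArG box was in 2 of the 23 members (8.70%), against 1.81% of 27025 genes, and the 2 were Itgb6 and Lama2, the genes called in muscle in both A vs G and C vs G. The ETS site, searched as GAGGAA, was in 14 of 23 members (31.3% of all genes). The GC box, searched as GGGCGG, was in 11 of 23 (38.2% of all genes). The TATA box, searched as TATAAA, was in 0 of 23 (15.7% of all genes). The stretches around the CArG boxes, which lie 41 and 30 bases before the start, are printed with the box in capitals, and a match is no sign that the factor binds there:
Itgb6 promoter, chr2:60673714-60673763, minus strand, GRCm38.p6: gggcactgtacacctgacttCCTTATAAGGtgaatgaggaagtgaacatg
Lama2 promoter, chr10:27616952-27617001, minus strand, GRCm38.p6: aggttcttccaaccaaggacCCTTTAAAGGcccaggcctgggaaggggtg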

How the data were processed

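RNA of aorta and skeletal muscle was read by the authors on Agilent mouse arrays with 1 colour, 42 in all on 11 slides. Scanner output was deposited with spot intensity from Feature Extraction 10.7.3.1, per the submitters' processing notes. Of 45018 spots, 1639 were controls and were left out. The authors' own log2 values were deposited as well and served as an alternative. Groups came from the labels. Median intensity was background corrected with normexp (offset 0), quantile normalized over the 42 arrays and taken to log2 with limma 3.58.1 in R 4.3.3. Irregular spots were set to missing, and spots were averaged per probe and probes per gene symbol.

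One limma model held 14 means (7 groups in 2 tissues) and 16176 genes, and P values were adjusted by Benjamini-Hochberg over the genes tested in each comparison. Values after ± are standard errors, and precision is limited by 3 arrays per group and tissue. The fit was checked on simulated data. The members, lists and motifs were chosen with earlier results of these data known. Full values were given for members called (6 with the smallest P), or else up to 3 with an unadjusted P below 0.05, and for 4 partners per comparison. Array values were given for members called in a tissue without slides 1, 3 and 11 and for the 6 largest tissue differences each way. Those of other genes were chosen after they were seen. Values of 1 member are not reported here. Alternatives changed the offset (50), the signal (processed, scaled to its 75th percentile), the authors' values, the filter, the probe, the arrays in the fit, and a term for slide, replicate number or scan day. Scan day, single probes and slide as a fixed block (but for D vs C) were added after the data were seen.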

Additional observations from a re-analysis of the deposited data

Results flagged for a closer look

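The difference between macroangiopathy and healthy mice was unlike in the tissues for 2 members by the interaction test. For Itgb6 the aorta difference minus the muscle difference was -0.93 (limma adjusted P = 0.0058), with aorta levels at or near the floor. It stayed called in 7 of 10 other settings. It was lost with the authors' values, with the processed signal and with scan day as a batch term. Over all 10 settings the limma adjusted P ran from 0.0023 to 0.66. For Itga8 the aorta difference minus the muscle difference was 2.72 (limma adjusted P = 0.041). This was lost in 7 of 10 other settings and in 9 of 12 fits that left out an array, and it was 1.88 without healthy aorta 1.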

How the results depend on the processing

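The number of members called in aorta or muscle was 11 in A vs G and became 2 with only the arrays compared and 7 without the arrays of slides 1, 3 and 11. It was 12 in C vs G and became 2 with only the arrays compared and 7 with scan day as a batch term. It was 2 in E vs C and became 1 with the brightest probe, with no filter, with an offset of 50, with slide as a random block and with the replicate block, 9 with only the arrays compared, and 0 with slides 1, 3 and 11 as a batch term or without their arrays, where only aorta could be fitted. It was 0 in F vs C and became 4 with only the arrays compared, 1 with slides 1, 3 and 11 as a batch term and 1 with each probe on its own. Between the tissues 25 members were called, and 9 with scan day as a batch term. Of the muscle arrays, healthy muscle 3 alone shared a scan day with aorta arrays, so with that term the tissue difference depends on this array. When arrays were left out in turn, 5 to 16 members were called for A vs G, 8 to 14 for C vs G, 1 to 2 in E vs C and 23 to 26 between the tissues. The lowest counts in A vs G and C vs G were those without healthy aorta 1 and the highest in A vs G that without healthy aorta 2. In C vs A, B vs C and D vs C 0 members were called in every setting run, with each array left out included. Beside the main fit, shares of all genes were counted only without slides 1, 3 and 11, without healthy aorta 1 and with slide as a fixed block. The other changes in number cannot be set against those of all genes.

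Differences that changed direction were those of Itga11 between the tissues (0.82 with scan day), Lamc1 between the tissues (0.76 with scan day, 0.11 with slides 1, 3 and 11 as a batch term), Itga3 in C vs G aorta (-0.018 without the arrays of slides 1, 3 and 11), Lamb2 in A vs G aorta (-0.20 without them) and Lama2 in E vs C muscle (0.25 with the brightest probe). With scan day as a term, those between the tissues depend on healthy muscle 3, the only muscle array that shared a scan day with aorta arrays. The cause of the changes was not tested. Itgb6 in muscle was lost with the authors' values and with the processed signal, and in A vs G also with scan day (highest adjusted P = 0.18 for A vs G and 0.17 for C vs G), and Lama2 in muscle with scan day (adjusted P = 0.087 and 0.14). The processed signal moved the median of all genes by 0.17 in A vs G muscle, 0.13 in C vs G muscle and 0.11 in E vs C muscle. Deviations of arrays with the same replicate number correlated at -0.57 to 0.69 (median -0.13) over 42 pairs of arrays from different groups of a tissue. Over 21 pairs of aorta and muscle of a group, the correlations were -0.36 to 0.23 (median 0.002). The labels do not say which samples share a mouse, and samples were not paired. With the replicate block, 11 members were called for A vs G, 13 for C vs G, 1 for E vs C and 25 between the tissues. Slide as a fixed block, added after the data were seen except for D vs C, could be fitted for A vs G, E vs C and F vs C in aorta, B vs C and C vs A in muscle and D vs C in both. It called 7 members for A vs G and 0 for each of the others. The tissue comparison could not be fitted without slides 1, 3 and 11.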
